A study of Mus musculus with 8 samples.

Results

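The HOX genes are homeodomain transcription factors that give cells their place along the body, and the 33 of them measured here were examined in lymphatic endothelial cells of mouse ear skin. They were chosen as every gene named alone by a probe set whose symbol is Hox, a cluster letter and a number, which gave 48 probe sets for 33 of the 39 HOX genes in the RefSeq gene table. The whole array names 18193 genes in this way. The other 6 HOX genes were not analysed here, and 3 probe sets that name a pair of HOX genes together were left out. Of these 3, the only one above background on any array names Hoxd4 with Hoxd3; it was above it on 6 of 8 arrays, reaching 4.82 on the log2 scale.

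Cells carrying CD31 and podoplanin and lacking CD45 were sorted from the ears of female FVB mice, 3 mice pooled per sample, and their amplified RNA was hybridised to 8 single-colour arrays. The untreated group (4 samples, aged 8 to 10 weeks) came from mice described as healthy, with no vehicle treatment named. The inflamed group (4 samples, same ages) had contact hypersensitivity: 2% oxazolone on abdomen and paws, then after 5 days 1% oxazolone on the ears (10 µl a side), with ears taken 24 hours later. An untreated and an inflamed sample shared each day of sorting and RNA extraction, which forms 4 pairs, and the submitters picked these pairs for the quality of their material. No transgene, deletion or other allele is named for either group.

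Mammalian HOX genes lie in 4 clusters, A to D, and members at matching places in different clusters form 13 paralog groups. The order of the genes along a cluster follows the order of their expression domains from head to tail in the embryo, with low-numbered groups anterior and high-numbered groups posterior. Adult cells such as skin fibroblasts and endothelium often keep a HOX pattern that depends on where in the body they lie. HOX proteins bind DNA together with cofactors of the PBX, MEIS and PKNOX families.

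HOX signal that stood above background on every array came from a single stretch of the D cluster. Hoxd8, Hoxd9 and Hoxd10 were above background on all 8 arrays, and all 3 were lower in inflamed skin in every pair. Their mean falls over the 4 pairs were 1.65 to 3.21 on the log2 scale. Of the other 30 genes, none was above background on all 4 untreated arrays, and Hoxa13 alone was above it on all 4 inflamed arrays. Background here means a ceiling per array, the 95th percentile of 27 Bacillus control probe sets, which lay between 2.53 and 3.31 on the log2 scale.

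The 250 bases before the annotated starts of the 3 expressed genes are shown because the genes lie next to each other and were all lower in inflamed samples. They are on the plus strand of mouse chromosome 2 in RefSeq on GRCm38.p6, and read from 5′ to 3′. Hoxd10 is preceded by chr2:74691641-74691890, Hoxd9 by chr2:74697513-74697762 and Hoxd8 by chr2:74704365-74704614. Capitals mark matches to any of 4 motifs searched on both strands with overlaps allowed. They were the GC box GGGCGG, the CCAAT box, the TATA box spelled TATAAA and the composite motif of PBX with HOX spelled TGATNNAT.
Hoxd10: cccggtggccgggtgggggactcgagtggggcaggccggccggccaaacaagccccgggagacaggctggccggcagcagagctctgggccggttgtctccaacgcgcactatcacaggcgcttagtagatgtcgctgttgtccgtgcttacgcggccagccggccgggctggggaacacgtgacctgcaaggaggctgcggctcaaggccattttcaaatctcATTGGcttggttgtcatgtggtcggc
Hoxd9: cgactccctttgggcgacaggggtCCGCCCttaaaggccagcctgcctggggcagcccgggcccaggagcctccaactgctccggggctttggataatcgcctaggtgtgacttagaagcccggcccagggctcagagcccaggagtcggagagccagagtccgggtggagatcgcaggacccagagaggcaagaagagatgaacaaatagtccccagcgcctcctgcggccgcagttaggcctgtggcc
Hoxd8: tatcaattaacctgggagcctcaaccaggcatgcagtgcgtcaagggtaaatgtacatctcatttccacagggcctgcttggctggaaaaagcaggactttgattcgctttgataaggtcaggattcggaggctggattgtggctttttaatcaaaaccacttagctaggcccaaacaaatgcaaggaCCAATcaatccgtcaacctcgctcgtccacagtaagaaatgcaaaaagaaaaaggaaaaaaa

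The Hoxd10 window held 1 CCAAT match on the minus strand, starting 26 bases before the gene's start. The Hoxd9 window held 1 GGGCGG match on the minus strand, starting 226 bases before. The Hoxd8 window held 1 CCAAT match on the plus strand, starting 62 bases before. The TATA box and the PBX with HOX motif had no match in these 3 windows. Among 32851 RefSeq windows of the same length, 32.7% held the GC box, 33.8% the CCAAT box, 12.4% the TATA box and 7.68% the PBX with HOX motif. The windows of Hoxd10 and Hoxd9 were rich in G and C, at 65.6% and 65.2% with 20 and 13 CpG dinucleotides. That of Hoxd8 had 44.4% and 6 CpG, against medians of 52.4% and 6 over all windows. The arrays measured nothing at these sequences. Promoter windows were found for 19 of the 33 measured genes.

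By cluster, 0 of 9 measured A genes, 0 of 9 B genes, 0 of 7 C genes and 3 of 8 D genes were above background on all 4 untreated arrays. By position, the count was 0 of 10 genes in paralog groups 1 to 4, 1 of 9 in groups 5 to 8 and 2 of 14 in groups 9 to 13. The share of HOX genes so detected was 9.09%, against 51.4% of all 18193 genes. In inflamed samples it was 12.1% against 47.7%. At least 1 array was above the ceiling for 21 of the 30 other genes, and 9 genes were above it on no array: Hoxa4, Hoxa10, Hoxb1, Hoxb2, Hoxb6, Hoxc4, Hoxc8, Hoxd1 and Hoxd13. The share of all genes above it on at least 1 array is not given here, so the count of 21 has no comparison.

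**Figure D1:**
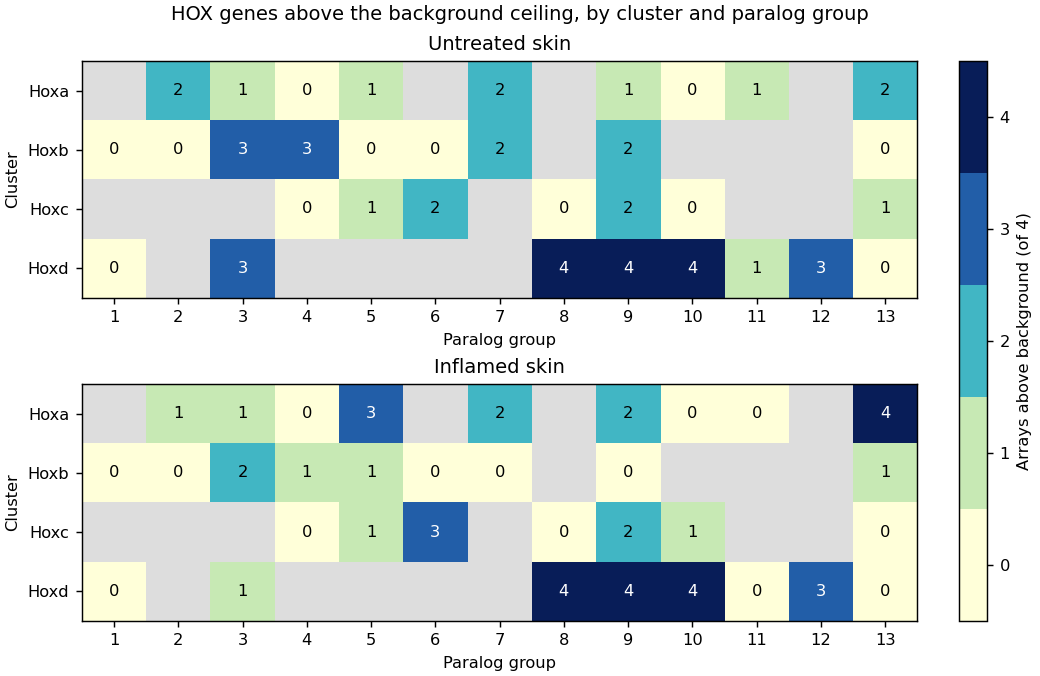
Number of arrays (of 4) on which each HOX gene was above the background ceiling, by cluster (rows) and paralog group (columns), for untreated (top) and inflamed (bottom) samples, taking the gene's probe set with the most such arrays. Grey squares have no probe set naming that gene alone, or no such gene in the mouse. Hoxd8, Hoxd9 and Hoxd10 stand at 4 in both panels, and Hoxa13 at 4 in the lower panel only.

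The 44 probe sets of those 30 genes gave 352 values between -0.71 and 6.17 on the log2 scale, of which 76 (21.6%) lay above the ceiling, 39 in untreated and 37 in inflamed samples. For comparison, 13.1% of the values of 44 olfactory receptor probe sets, genes of the nose, lay above it. The median of the 352 values was 1.34 over untreated and 1.43 over inflamed arrays. Hoxb3 and Hoxb4 each had a probe set above the ceiling on 3 of 4 untreated arrays, and Hoxc6 on 3 of 4 inflamed arrays. For Hoxb3, Hoxb4 and Hoxc6 these counts were the same with a ceiling from the 99th percentile of the Bacillus controls or from the olfactory receptor probe sets. Under these 2 ceilings, in that order, Hoxd3 went from 3 untreated arrays to 2 and 1, and Hoxa5 from 3 inflamed arrays to 1 and 2. Hoxd12 went from 3 arrays in each group to 2 with the 99th percentile ceiling and stayed at 3 with the other. On most arrays, the 30 genes are therefore described as at or near background, which does not show that their transcripts are absent. They include Hoxa2, which patterns the second pharyngeal arch and is required for the outer ear to form: its signal ran from 0.79 to 4.87, above the ceiling on 2 untreated arrays and 1 inflamed array.

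Hoxd8, which has been linked to the response of lymphatic endothelium to PROX1, was measured by 2 probe sets. The brighter gave 10.58, 10.81, 10.89 and 10.93 on untreated arrays 1 to 4, and 7.84, 9.84, 9.84 and 9.08 on inflamed arrays 1 to 4 (log2 signal). The second gave 9.53, 10.26, 9.93 and 10.04, and 5.91, 9.39, 8.25 and 8.65. On both probe sets every inflamed array lay below every untreated array, and inflamed array 1 lay lowest. The mean fell by 1.65 ± 0.31 (SE of the limma fit, n = 4 pairs), 3.14-fold, from 10.80 ± 0.15 to 9.15 ± 0.94 (SD; limma adjusted p = 0.0140). Fitted on its own, the second probe set fell by 1.89 ± 0.43 (limma adjusted p = 0.0319).

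Hoxd9, a posterior-group gene that acts in limb patterning, gave 10.82, 11.41, 11.16 and 11.47 on the untreated arrays. The inflamed arrays gave 6.60, 8.93, 9.48 and 8.72. The groups did not overlap, and inflamed array 1 again lay lowest. The mean fell by 2.79 ± 0.37 (SE, n = 4 pairs), 6.90-fold, from 11.22 ± 0.30 to 8.43 ± 1.26 (SD; limma adjusted p = 0.00278).

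Hoxd10, described as a factor that holds blood vessel endothelium in a resting state, gave 8.51, 8.93, 9.64 and 8.41 on the untreated arrays. The inflamed arrays gave 4.80, 4.56, 6.81 and 6.48, so that the groups did not overlap and inflamed arrays 1 and 2 lay lowest. The mean fell by 3.21 ± 0.53 (SE, n = 4 pairs), 9.25-fold, from 8.87 ± 0.56 to 5.66 ± 1.15 (SD; limma adjusted p = 0.00811). RefSeq's Hoxd10 model overlaps that of Hoxd11, whose own probe set was above background on 1 array.

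**Figure D2:**
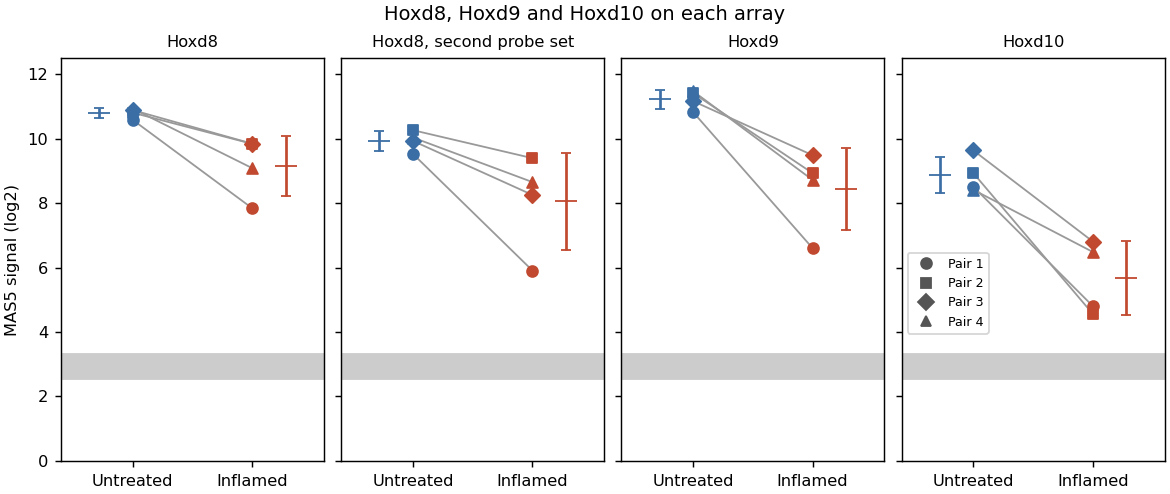
Log2 MAS5 signal of the 2 Hoxd8 probe sets and of Hoxd9 and Hoxd10 on each array, untreated (blue) and inflamed (red), with lines joining the arrays of a pair, a marker shape per pair and bars for mean ± SD (n = 4). The grey band spans the background ceilings of the 8 arrays (2.53 to 3.31). Every line falls, and no inflamed value reaches an untreated one.

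Untreated arrays spanned 0.35 for Hoxd8, 0.65 for Hoxd9 and 1.22 for Hoxd10, and inflamed arrays 2.00, 2.89 and 2.25. Within pairs 1 to 4 the change was -2.74, -0.97, -1.04 and -1.85 for Hoxd8 and -4.22, -2.49, -1.68 and -2.76 for Hoxd9. It was -3.71, -4.37, -2.83 and -1.93 for Hoxd10. The difference in size of fall between the 3 genes was not tested. In bulk samples such as these, fewer cells with a transcript and less transcript per cell cannot be told apart.

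Across the table of 10843 genes tested, 3.02% were called lower, 3.91% higher and 6.94% in either direction at an adjusted p under 0.05 in limma. Of the 33 HOX genes, 6 passed the filter on dim probe sets: 3 were called lower and 0 higher, also at an unadjusted p under 0.05. The inflamed arrays lay entirely below the untreated ones for 3 of these 6, against 6.84% of all tested genes, and entirely above for 0, against 6.3%. All 4 pairs were lower for 3 of the 6, against 15.5%, and higher for 1 of the 6 (Hoxc6), against 13.6%. Without that filter all 33 were tested, and 3 (Hoxd8, Hoxd9 and Hoxd10) were again called lower, against 1.66% of 18193 genes. There the median change of the 33 was -0.25, beside -0.04 over all genes, and 12 of 33 had a positive change, where 48.4% of all genes did. Of the 33, 9 were above background on no array, so the sign of many of these changes rests on values under it. Without the filter, 1 HOX gene was higher at an unadjusted p under 0.05 in limma. It was Hoxc10, which differed by 2.23 ± 0.77 (SE; limma adjusted p = 0.160) with 1 inflamed array above background.

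All 3 calls depended on the intensity trend of the limma fit, which lets the expected spread follow the level. Without it the adjusted p in limma was 0.147 for Hoxd8, 0.0789 for Hoxd9 and 0.0594 for Hoxd10, while 47 genes in all were called lower. Leaving out pair 3 ended the call of Hoxd10 (adjusted p = 0.0510 in limma), although its measured difference was then -3.34.

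**Figure D3:**
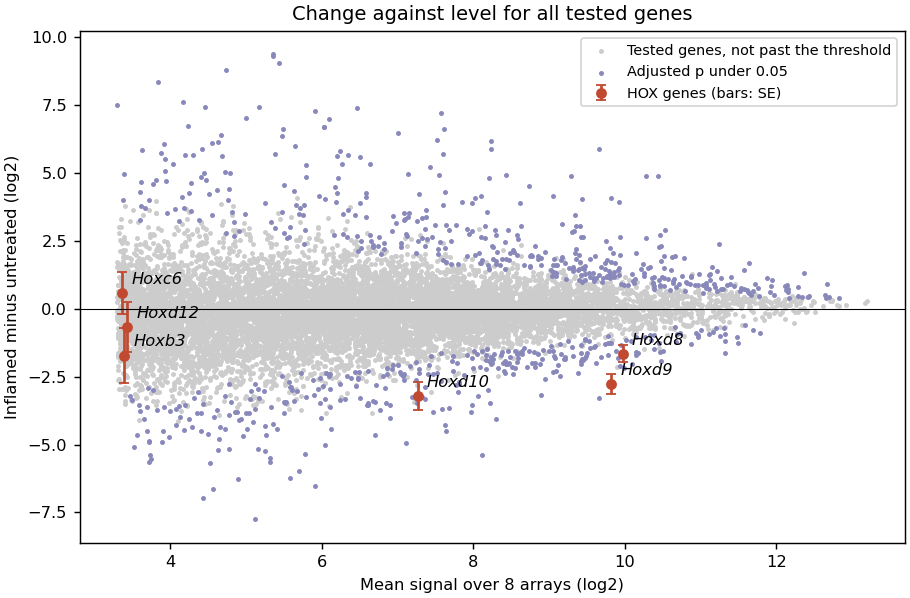
Change (inflamed minus untreated, log2) against mean log2 signal over 8 arrays for 10843 tested genes, with genes past an adjusted p of 0.05 in blue and the 6 tested HOX genes in red with SE bars. Hoxd8, Hoxd9 and Hoxd10 lie below 0 by 1.65 to 3.21, and Hoxb3, Hoxc6 and Hoxd12 lie at the dim end with SE between 0.77 and 1.00.

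The other 3 tested members were dim. Hoxd12, a posterior gene of the D cluster, gave 3.68, 4.46, 3.10 and 3.83 on untreated and 3.03, 4.05, 4.46 and 0.84 on inflamed arrays, above the ceiling on 3 of 4 in each group. The groups overlapped, and the difference was -0.67 ± 0.91 (SE; limma adjusted p = 0.727), which turned to 0.10 without pair 4 or when scaled to lymphatic markers. Hoxb3, an anterior gene of the B cluster, gave 3.87, 5.65, 4.65 and 2.85 on untreated and 4.24, 4.73, -0.28 and 1.45 on inflamed arrays. The difference was -1.72 ± 1.00 (SE; limma adjusted p = 0.361), with 3 untreated and 2 inflamed arrays above the ceiling. Within pairs 1 to 4 the change was 0.38, -0.93, -4.94 and -1.39, and without pair 3 the difference was -0.65 (limma adjusted p = 0.776). Its second probe set, under the filter, differed by 0.16. Hoxc6 gave 2.81, 3.52, 2.32 and 3.67, and 3.84, 4.16, 2.65 and 3.97. Its difference was 0.58 ± 0.77 (SE; limma adjusted p = 0.721), with 2 untreated and 3 inflamed arrays above the ceiling. The groups of Hoxc6 overlapped, but each inflamed array was above its untreated partner, by 1.03, 0.64, 0.34 and 0.30 in pairs 1 to 4. None of these 3 genes passed the test.

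At the edge of the filter, which lay at a mean log2 signal of 3.30, Hoxc6 at 3.37 was just inside and Hoxa13 at 3.08 just outside. Hoxa13, the most posterior A gene, gave 2.74, 3.59, 3.22 and 1.02 on untreated and 4.42, 3.38, 3.17 and 3.12 on inflamed arrays. With the ceiling taken from the olfactory receptor probe sets, 2 of these inflamed values lay above it, and with the 99th percentile of the Bacillus controls 1 did.

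The genes around Hoxd8, Hoxd9 and Hoxd10 are taken in chromosomal order, each by its probe set with the highest mean. The flanking gene Lnpk was at 4.87 ± 0.70 in untreated and 4.80 ± 0.83 in inflamed samples (SD, n = 4), and Mtx2 on the other side at 7.13 ± 1.04 and 7.12 ± 0.33. Neither was called as different between the groups (limma adjusted p = 0.968 and 0.996). Between Lnpk and Hoxd10, the posterior genes Hoxd13 and Hoxd11 were above background on 0 and 1 of 8 arrays, and the homeobox gene Evx2 on 1 untreated and 3 inflamed arrays.

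On the anterior side, the noncoding transcript Hoxd3os1 was above background on all 8 arrays. It gave 7.64, 8.83, 9.16 and 9.31 on untreated and 7.31, 6.90, 8.15 and 9.54 on inflamed arrays, which overlap, and differed by -0.76 ± 0.42 (SE; limma adjusted p = 0.341). Gm38462, a noncoding gene, comes between Hoxd9 and Hoxd8 in this order, and its RefSeq span overlaps that of Hoxd8. It went from 4.67 ± 1.56 to 3.15 ± 1.42 (SD, n = 4) and did not pass either (limma adjusted p = 0.264). Beyond Hoxd3os1, Hoxd3 gave 1.79, 3.49, 6.17 and 3.52 on untreated arrays, above the ceiling on 3 of them and on 1 inflamed array. Hoxd1 was above it on none. Naming these neighbours was decided after the values of the HOX genes were seen.

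**Figure D4:**
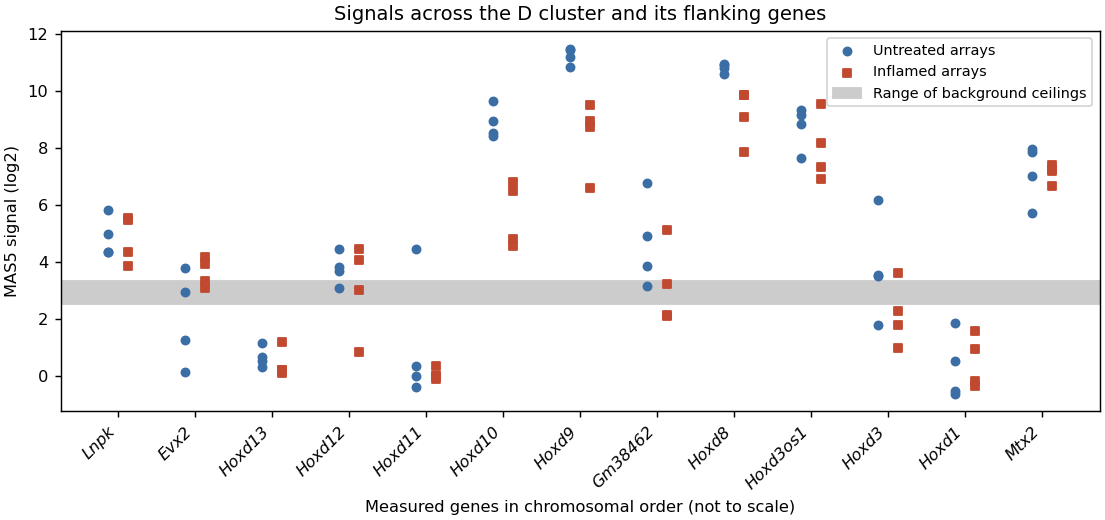
Log2 MAS5 signal on each untreated (blue circles) and inflamed (red squares) array for the measured genes from Lnpk to Mtx2, in chromosomal order and not to scale. The grey band spans the background ceilings. Hoxd10, Hoxd9 and Hoxd8 separate by group, while Hoxd3os1 beside them, Lnpk and Mtx2 overlap between groups. Signals of different probe sets are not to be ranked against each other.

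Genes that work with or on HOX genes were taken from lists. Beside the counts called in each list and marker set below, 3.91% of all tested genes were called higher and 3.02% lower. Of the PBX, MEIS and PKNOX cofactors, 4 of 8 measured genes were tested and 0 were called in either direction (median change -0.12, beside -0.09 over all tested genes). Pbx2 differed by -1.69 ± 0.56 (SE; limma adjusted p = 0.115), Meis1 by 0.53 ± 0.78 and Pknox1 by -0.30 ± 0.51. Of the 4 tested, Pbx2, Pknox1 and Meis2 were above background on all 8 arrays, and Meis1 on 3 untreated and 4 inflamed arrays.

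Of the Polycomb genes, which keep HOX clusters silent, 23 were tested, 1 was lower and 0 higher (median change -0.61). The lower gene was Cbx6, a chromodomain subunit, from 10.10 ± 0.14 to 8.75 ± 0.67 (SD, n = 4; limma adjusted p = 0.0328). Pcgf2 differed by -3.38 ± 0.88 (SE; limma adjusted p = 0.0521) and Bmi1 by -1.27 ± 0.45. Of 12 Trithorax genes and histone H3K27 demethylases, which oppose Polycomb, 0 were called (median change -0.44). Kmt2c differed by -1.35 ± 0.47, Wdr5 by 0.89 ± 0.44 and Rbbp5 by -0.94 ± 0.74 (SE).

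Retinoic acid, which induces anterior HOX genes in the embryo, had 12 tested genes of its signalling and metabolism, of which 3 were higher and 0 lower (median change 0.57). Cyp26a1 and Cyp26b1 encode enzymes that degrade retinoic acid, and Aldh1a3 one that makes it. Cyp26a1 gave 4.03, 4.34, 0.07 and 1.80 on untreated and 7.41, 7.04, 5.84 and 7.66 on inflamed arrays (limma adjusted p = 0.0123). Only 2 untreated arrays were above background, so the size of its rise, 4.42 ± 0.81 (SE), rests in part on values under it. Aldh1a3 likewise was above background on 2 untreated arrays. Cyp26b1 rose by 2.05 ± 0.44 and Aldh1a3 by 3.45 ± 0.87 (limma adjusted p = 0.0243 and 0.0463). Of 18 tested transcription factors known from other regional programmes, such as those of limb and face, 0 were called (median change -0.41). Twist2 differed by 2.54 ± 0.84, Dlx5 by -2.21 ± 0.78 and Satb1 by -2.38 ± 0.88 (SE). Of the noncoding transcripts of the HOX clusters and the Cdx, Gsx, Pdx and Evx genes, 11 were measured, 2 were tested and 0 were called. Besides Hoxd3os1 these included Hoxb5os, at -1.90 ± 1.33 (SE).

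The sorted cells carried lymphatic endothelial markers: all 10 measured of 11 were above background on every array. The log2 of their summed linear signal, to which the brightest genes give most, was 14.6 to 15.0 in untreated and 13.8 to 14.6 in inflamed samples, lower in 4 of 4 pairs. Within pairs 1 to 4 it changed by -0.79, -0.62, -0.02 and -0.35. Of the 10, 4 were called lower and 0 higher (median change -0.82): Mmrn1 fell by 1.20, Nrp2 by 1.71, Tie1 by 2.18 and Reln by 0.91. Prox1 gave 11.00, 11.26, 11.38 and 11.03 on untreated and 7.79, 10.14, 11.05 and 9.95 on inflamed arrays (limma adjusted p = 0.0618). Its lowest value, like those of Hoxd8 and Hoxd9, was on inflamed array 1. Among the inflamed arrays, Lyve1, Flt4, Pdpn, Reln, Mmrn1, Tie1 and Cdh5 were also lowest on array 1, while Nrp2 and Pecam1 were not. Pecam1, which encodes CD31, gave 9.05, 10.36, 10.65 and 9.04 on the inflamed arrays, against 10.36 to 10.59 on the untreated ones. Lyve1, a hyaluronan receptor, was at 12.14 ± 0.26 in untreated and 11.96 ± 0.31 in inflamed samples (SD, n = 4). Pdpn, which encodes podoplanin, ran from 10.94 to 11.89 in untreated and 11.53 to 12.40 in inflamed samples and was higher in 4 of 4 pairs, by 0.56 ± 0.15 (SE; limma adjusted p = 0.0605). Cdh5, which encodes VE-cadherin, differed by 0.50 ± 0.20 and was higher in 3 of 4 pairs (limma adjusted p = 0.181).

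With every gene set against the array's mean lymphatic marker level, a scaling chosen after the data were seen, Hoxd9 differed by -2.02 ± 0.35 (SE; limma adjusted p = 0.00241). Hoxd10 differed by -2.44 ± 0.56 (limma adjusted p = 0.0119), and Hoxd8 by -0.88 ± 0.33, which did not pass (limma adjusted p = 0.0874). This scaling moved the median change of all genes to 0.68. With it, 135 of 10843 genes were called lower and 1418 higher, against 328 and 424 without it. Of the 10 markers it rests on, 4 were themselves called lower. Without inflamed array 1, in a fit of 7 arrays with no block, the differences were -1.21 for Hoxd8, -2.18 for Hoxd9 and -2.92 for Hoxd10, and all 3 passed (limma adjusted p = 0.0225, 0.00133 and 0.0167).

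**Figure D5:**
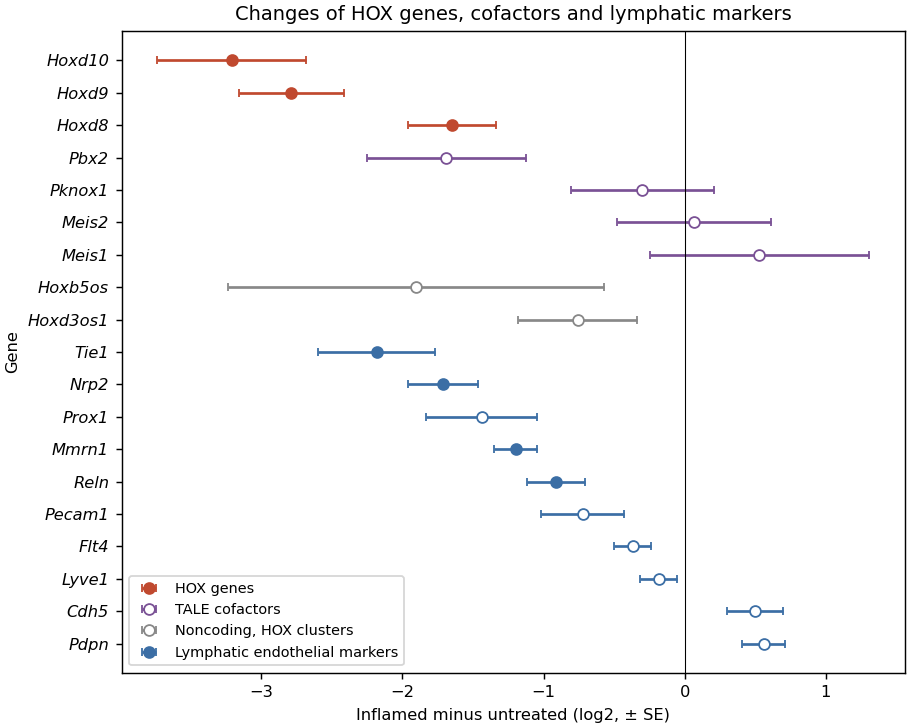
Change (inflamed minus untreated, log2, ± SE of the limma fit) of Hoxd8, Hoxd9 and Hoxd10, the tested cofactors, the tested noncoding transcripts and the 10 lymphatic endothelial markers. Filled points passed an adjusted p of 0.05. Hoxd10 and Hoxd9 lie farthest left of all the genes drawn, and Hoxd8 lies between the markers Nrp2 and Prox1.

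Markers of other cells were present too. The log2 of the summed signal, taken in the same way, ran for 12 fibroblast markers from 12.8 to 14.5 in untreated and 13.6 to 14.7 in inflamed samples, higher in all 4 pairs, with 1 of 11 tested genes called higher and 0 lower. Within pairs 1 to 4 the fibroblast sum changed by 0.21, 0.17, 0.77 and 0.01. Across the untreated arrays these 12 markers spanned between 0.30 (Thy1) and 5.36 (Dpt) on the log2 scale. Leukocyte markers summed to 7.07 to 9.52 and 10.2 to 11.1, with 2 of 6 tested called higher. These were S100a8, which rose by 7.02, and S100a9, by 7.30, each above background on 1 untreated array. Lyz2, Cd14 and Cd68 differed by 1.94, 2.42 and 1.86 and were not called. Nor was Csf1r, which differed by 0.46 and was lower in 3 of 4 pairs. Ptprc, which encodes CD45, was above background on 0 untreated and 3 inflamed arrays. Keratinocyte markers summed to 9.98 to 12.2 and 7.46 to 10.4, with 3 of 7 tested lower and the sum lower in 3 of 4 pairs. Blood endothelial markers summed to 11.6 to 12.3 and 11.1 to 12.1, with 2 of 9 tested lower. The ranges of pericyte and smooth muscle markers (7.74 to 11.0 and 8.80 to 9.32) and of chondrocyte markers (11.0 to 12.8 and 10.5 to 12.9) overlapped between the groups, as did those of melanocyte and Schwann cell markers (4.47 to 6.62 and 5.97 to 6.63), with 0 called in each. The part of these cells in the fall of the HOX genes was not tested.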

How the data were processed

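The deposited intensity values are linear and, per the submitters' processing notes, come from MAS5. Its version, scaling target and detection calls are unknown here. Of 45037 probe sets other than controls, 34945 named 1 gene in GEO's platform annotation, 932 several and 9160 none. The gene IDs of all 33 HOX genes matched the RefSeq table. Array medians of log2 signal differed by 0.467, under the limit of 0.5 for centring, so the authors' scaling was kept, without a pseudocount. A mean log2 signal of at least 3.30 was required, and the brightest probe set stood for a gene.

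Two-sided tests of the 10843 remaining genes used lmFit and eBayes with an intensity trend (limma 3.58.1, R 4.3.3). Pairs entered as a fixed block, and Benjamini-Hochberg adjustment ran over all genes. Alternatives changed the block, trend, scaling, filter, pseudocount, probe set rule and pairs used. The code was tested on simulated data. The series' design text states the pairs, which were matched by replicate number. Deviations from the group means correlated across genes at 0.16, 0.00, 0.08 and 0.03 within pairs 1 to 4. P-values refer to pools of 3 mice and rest on 3 residual and 6.27 prior degrees of freedom. The number of arrays limits the precision. Per-array values are named for members passing the filter that were called or above background on at least 3 of 4 arrays of a group, and up to 3 genes with the smallest p from each other list. Hoxa13 and the neighbours of the D cluster were added after their values were seen. Members and lists were chosen with earlier results of these data known.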

Additional observations from a re-analysis of the deposited data

Results flagged for a closer look

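On 12 of 96 groups of 4 arrays of a HOX probe set, a single array stood apart from the other 3 by Dixon's 95% limit, where chance gives about 1 in 20. All 12 belong to dim probe sets, and none to Hoxd8, Hoxd9 or Hoxd10. Above the background ceiling were Hoxd11 at 4.45 on untreated array 3 (next highest 0.35), Hoxa5 at 3.86 on untreated array 4, and on inflamed array 3 Hoxa3 at 3.13 and Hoxc5 at 3.43. Below the ceiling on untreated arrays were Hoxa3 at 3.09 on array 4, Hoxa9 at 2.60 and Hoxb13 at 0.12 on array 3, and Hoxc5 at 0.10 on array 2. Below it on inflamed arrays were Hoxb2 at 2.12 on array 4, and Hoxc5 at 1.71, Hoxc8 at 1.84 and Hoxd13 at 1.20 on array 3.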

How the results depend on the processing

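The count of HOX genes called lower was 3 with no replicate block, with a random one, under median centring, quantile normalization, a pseudocount of 16, both other filters on dim probe sets and both other ways of treating several probe sets. It was 0 without the intensity trend (3 at an unadjusted p under 0.05 in limma), 2 when scaled to lymphatic endothelial markers, and 2 to 3 when a pair was left out. The count called higher was 0 in all 16 alternatives. Over these, the difference of Hoxd8 ran from -1.88 to -0.88, of Hoxd9 from -3.16 to -2.02 and of Hoxd10 from -3.64 to -2.44, with adjusted p in limma of 0.00788 to 0.147, 0.00112 to 0.0789 and 0.00386 to 0.0594. Hoxb3 differed by -1.72, by -0.65 without pair 3 and by -0.51 with the pseudocount. Hoxd12 turned to 0.10 when scaled to lymphatic markers, and ran from -1.35 to 0.10 when a pair was left out, except pair 2, where it was not tested, as under the stricter filter. The cause was not tested. The median over all tested genes was -0.09, and 0.22 after median centring.

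Asking for 3 of 4 arrays above background in place of 4, a looser rule by construction, gave 7 HOX genes in each group. Beside Hoxd8, Hoxd9 and Hoxd10, these were Hoxb3, Hoxb4, Hoxd3 and Hoxd12 in untreated samples. In inflamed samples they were Hoxa5, Hoxa13, Hoxc6 and Hoxd12. The share of all genes under this rule is not given here. Leaving out a pair gave 3 to 5 in untreated and 4 to 5 in inflamed samples. The 99th percentile ceiling and the ceiling from olfactory receptor probe sets each gave 3 in both groups: Hoxd8, Hoxd9 and Hoxd10. Signal near background limits most values of the other HOX genes, of which 21.6% lay above the ceiling.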
